A study of Mus musculus with 44 samples.

Results

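Prostaglandin E2 is a lipid signal that is made inside the ovarian follicle at ovulation, and 10 genes that make, carry, sense or remove it were followed in mouse follicles given PFNA. PFNA is perfluorononanoic acid, one of the long-lived fluorinated surfactants known as PFAS. The genes were chosen by symbol: Pla2g4a, Ptgs1, Ptgs2, Ptges, Ptges2, Ptges3, Ptger2, Ptger4, Slco2a1 and Hpgd. All 10 had a row both in the table of the maturation window, which holds 22674 genes, and in the table of the ovulation window, which holds 18274 genes. The series holds 44 RNA sequencing libraries of whole ovarian follicles from wild-type CD-1 mice, an outbred strain. In the maturation window, when gonadotropin drives follicle growth, 11 control libraries had received DMSO, a solvent, and 10 had received PFNA; hCG is named for neither. In the ovulation window 12 control libraries had received hCG (human chorionic gonadotropin, the ovulatory trigger) and 11 had received hCG with PFNA, so both groups carried hCG. The dose and the exposure times are not given in the labels. The labels do not say that the libraries of a group came from separate animals or cultures, so p-values measure the spread between these libraries, which may be technical.

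Prostaglandin synthesis starts when a phospholipase A2 frees arachidonic acid from membranes. A cyclooxygenase turns arachidonic acid into prostaglandin H2, a prostaglandin E synthase turns that into prostaglandin E2, and the EP2 and EP4 receptors pass the signal on by raising cyclic AMP in granulosa and cumulus cells. A transporter takes the prostaglandin back into cells, where 15-hydroxyprostaglandin dehydrogenase inactivates it. In the ovary the surge of luteinizing hormone, which hCG mimics, is known to switch on the inducible cyclooxygenase in granulosa cells, and mice without that enzyme or without EP2 ovulate poorly.

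All 10 granulosa markers were in each table, and their summed level, carried mostly by Inha, Inhba and Fst, genes of the inhibin and activin system, was 32518 to 52450 TPM in maturation controls and 14321 to 39066 TPM with PFNA, and 12448 to 19358 CPM in ovulation controls and 10852 to 17438 CPM with PFNA. Some of the defining markers were scarce: Wt1 had a mean of 0.959 TPM in maturation controls and Amh of 1.17 CPM in ovulation controls. TPM is a transcript level per length, scaled to a fixed total, so the depth of the maturation libraries is unknown, and CPM is counts per 1000000. Ovulation libraries held 11961104 to 16045755 counts in controls and 10600937 to 19511532 with PFNA. On the first principal component of the maturation window, PFNA replicates 1 and 2 scored -18.1 and -10.6, inside the control range of -37.7 to -7.60, whereas the other PFNA libraries scored 33.4 to 48.8. Results of that window are therefore also given without these 2 libraries. Oocyte markers were lower with PFNA in the maturation window for 10 of 10 markers tested, with a summed level of 123 to 193 TPM in controls and 0.425 to 327 TPM with PFNA, and PFNA replicates 1, 2 and 10 kept an oocyte share near or above that of controls. Granulosa markers were lower for 5 of 10 (Amh, Fshr, Inha, Nr5a2 and Cyp19a1) and higher for none in that window. Theca markers were higher for 2 and lower for 1 of 6, leukocyte markers higher for 2 of 6 tested, and no marker of stroma (6 tested), endothelium (6) or surface epithelium (4) was called. Of all genes tested in that window, 13.3% were higher and 16.1% lower. The part of these marker shifts in the maturation results was not tested. A fit with the oocyte share as covariate is given below, but it cannot separate that share from PFNA.

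The sequence just before the start site is shown for 4 members, those with the largest fold changes among the genes whose groups did not overlap at ovulation, with 250 bases upstream of the RefSeq start (GRCm38.p6), written 5′ to 3′ on the strand of the gene. RefSeq windows were found for 10 of 10 members. Capitals mark matches, on either strand, to the TATA box TATAAA, the E-box CACGTG, the cyclic AMP response core TGACG, the RUNX site TGTGGT, the Sp1 box GGGCGG, the C/EBP site TTGCNNAA and the nuclear receptor core AGGTCA.
Pla2g4a promoter, chr1:149961291-149961540, minus strand: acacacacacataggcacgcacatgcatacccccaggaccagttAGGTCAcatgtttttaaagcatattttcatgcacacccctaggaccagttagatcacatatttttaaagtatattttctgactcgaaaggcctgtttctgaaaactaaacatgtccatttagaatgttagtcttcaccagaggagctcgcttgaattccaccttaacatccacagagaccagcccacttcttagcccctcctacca
Ptgs2 promoter, chr1:150099781-150100030, plus strand: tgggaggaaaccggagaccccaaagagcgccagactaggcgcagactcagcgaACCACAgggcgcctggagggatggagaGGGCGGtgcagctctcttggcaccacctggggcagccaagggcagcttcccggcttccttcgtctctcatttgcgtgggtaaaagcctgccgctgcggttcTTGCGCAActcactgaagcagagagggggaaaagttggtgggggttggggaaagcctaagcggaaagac
Ptger4 promoter, chr15:5244188-5244437, minus strand: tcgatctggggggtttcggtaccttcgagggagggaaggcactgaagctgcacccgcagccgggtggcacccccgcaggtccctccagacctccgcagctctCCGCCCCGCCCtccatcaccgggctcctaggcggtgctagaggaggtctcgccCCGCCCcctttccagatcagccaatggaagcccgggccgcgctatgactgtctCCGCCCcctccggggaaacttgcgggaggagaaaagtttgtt
Hpgd promoter, chr8:56294302-56294551, plus strand: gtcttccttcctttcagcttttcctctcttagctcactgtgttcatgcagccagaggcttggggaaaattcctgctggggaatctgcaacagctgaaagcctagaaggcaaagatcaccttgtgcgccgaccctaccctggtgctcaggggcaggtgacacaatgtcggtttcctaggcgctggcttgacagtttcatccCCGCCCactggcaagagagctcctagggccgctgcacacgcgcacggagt

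In the Ptgs2 promoter the capitals are, in order, a RUNX match on the opposite strand 192 to 197 bases before the start, an Sp1 box at 165 to 170 bases, and a C/EBP match at 62 to 69 bases that reads alike on both strands. A cyclic AMP response core on the opposite strand lay 14 to 18 bases after the start and shared bases with an E-box 17 to 22 bases after it. The Pla2g4a window held a nuclear receptor core 201 to 206 bases before the start. The Ptger4 window held 4 Sp1 boxes on the opposite strand, of which the pair farthest from the start share a base, and the Hpgd window held an Sp1 box on the opposite strand at 45 to 50 bases and a TATA box 5 to 10 bases after the start, beyond the bases printed. Among 32851 promoter windows of 300 bases, 10.8% held the C/EBP site, 16.8% the RUNX site, 20.8% the cyclic AMP response core, 7.15% the E-box, 35.7% the Sp1 box, 16.3% the nuclear receptor core and 13.6% the TATA box. The matches are a description of letters in these windows, and no binding was measured.

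At ovulation hCG with PFNA was tested against hCG alone. No ovulation group was without hCG, so the response to the trigger itself was not measured. Of the 10 genes, 5 were lower with PFNA (Pla2g4a, Ptgs1, Ptgs2, Ptges2 and Ptger4), 2 were higher (Ptger2 and Hpgd) and 3 did not pass the test (Ptges, Ptges3 and Slco2a1). Over all 13441 genes tested, 73.2% were called at an adjusted p under 0.05 (38.0% higher, 35.2% lower; edgeR's quasi-likelihood test with Benjamini-Hochberg adjustment), so 7 called of 10 is close to the background and is no result about the set. The median log2 fold change was -0.58 over the 10 genes and 0.04 over all genes tested. The groups did not overlap at all for 5 of the 10 genes (Pla2g4a, Ptgs2, Ptges2, Ptger4 and Hpgd), against 26.0% of all genes tested (11.9% with PFNA higher, 14.1% lower). In these whole follicles, fewer cells of a type and less RNA per cell cannot be told apart.

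**Figure D1:**
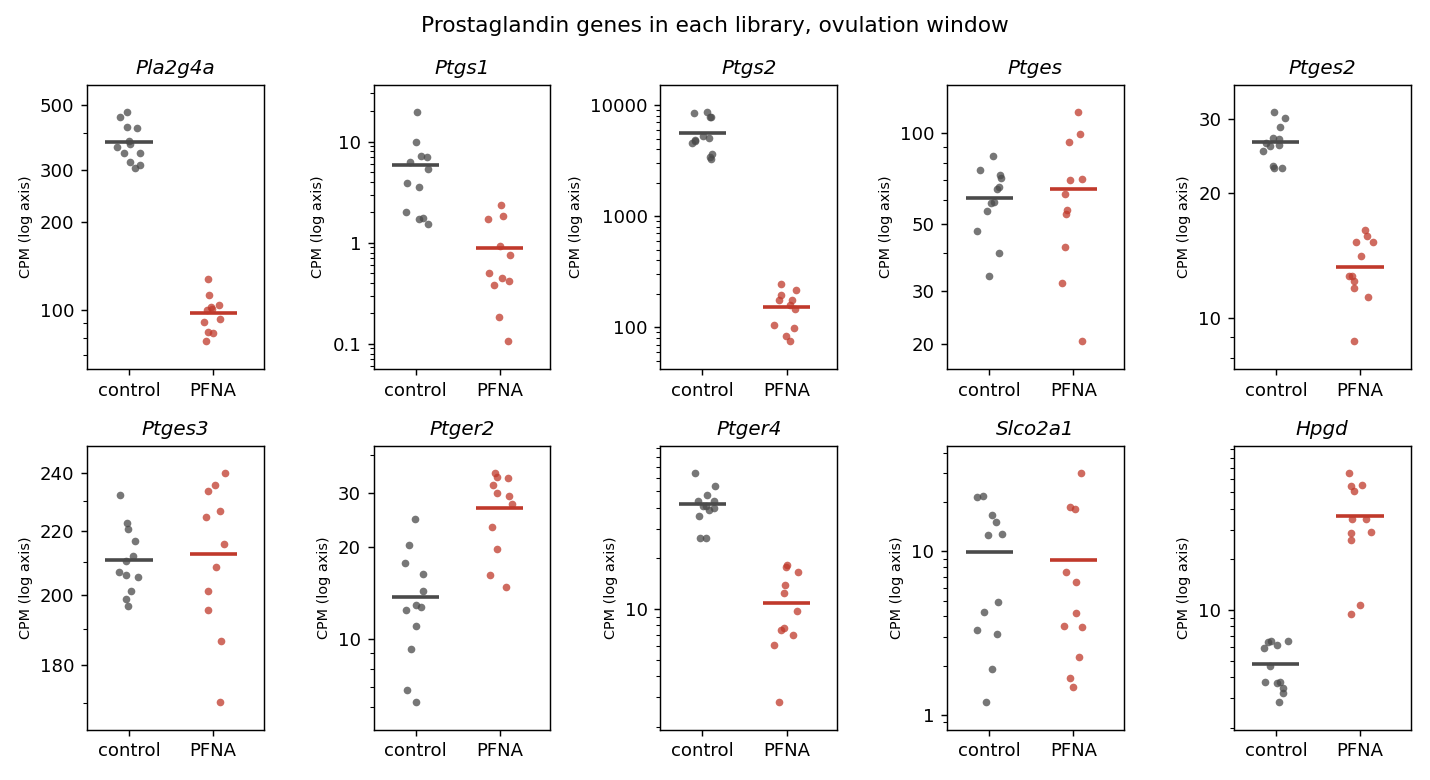
Level of each gene in every ovulation library (CPM, log axes that do not start at 0 and differ between panels) for 12 control and 11 PFNA libraries; each point is a library and each bar the group mean. Ptgs2, Pla2g4a, Ptger4 and Ptges2 lie lower in every PFNA library than in any control, and Hpgd lies higher in every one.

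Pla2g4a (chr1:149829618-149961290, minus strand, GRCm38), the cytosolic phospholipase A2 that frees arachidonic acid, fell at ovulation. Its level was 305 CPM in the lowest control, 364 at the median and 472 in the highest, and 78.2, 99.7 and 128 CPM in the PFNA libraries. Every PFNA library lay below every control, and both groups were narrow. The mean fell from 374 ± 55.7 (SD, n = 12) to 98.0 ± 14.3 CPM (SD, n = 11), with a log2 fold change of -1.93 (SE 0.09, adjusted p = 1.3e-15, edgeR).

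Ptgs2 (chr1:150100031-150108227, plus strand), the inducible cyclooxygenase that sets the rate of prostaglandin synthesis at ovulation, had the largest change of the 10. Controls held 3283 CPM at the lowest, 4985 at the median and 8605 at the highest, whereas PFNA libraries held 74.7, 160 and 248 CPM. The highest PFNA library was thus far below the lowest control. The mean was 5646 ± 1997 CPM (SD, n = 12) in controls and 153 ± 57.0 CPM (SD, n = 11) with PFNA, which is 2.71% of the control mean or 36.9-fold lower (log2 fold change -5.21, SE 0.25, adjusted p = 7.7e-15, edgeR). These levels rest on 45302 to 125385 estimated counts per control library and 1370 to 5037 per PFNA library. Relative spread was alike in the groups, with a coefficient of variation of 35.4% in controls and 37.3% with PFNA.

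Ptgs1 (chr2:36230426-36252272, plus strand) encodes the other cyclooxygenase, which most tissues make at all times. It was scarce, with 1.52 CPM in the lowest control, 4.66 at the median and 19.5 in the highest, against 0.105, 0.50 and 2.36 CPM with PFNA. The groups overlapped, and 8 of 11 PFNA libraries lay below all controls. It fell by 2.70 on the log2 scale (SE 0.49, adjusted p = 3.0e-05, edgeR), from 5.82 ± 5.07 (SD, n = 12) to 0.877 ± 0.755 CPM (SD, n = 11). Only 2 to 48 estimated counts per PFNA library and 23 to 198 per control stand behind these values.

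The 3 prostaglandin E synthases did not move together at ovulation. Ptges2 (chr2:32395896-32405772, plus strand), the membrane-associated synthase 2, held 22.9, 26.2 and 31.2 CPM in the lowest, median and highest control and 8.78, 12.6 and 16.3 CPM with PFNA, without overlap. Its mean fell from 26.4 ± 2.71 (SD, n = 12) to 13.3 ± 2.28 CPM (SD, n = 11), with a log2 fold change of -0.99 (SE 0.09, adjusted p = 5.2e-10, edgeR). Ptges (chr2:30889471-30929863, minus strand), the inducible microsomal synthase that is coupled to Ptgs2 in many tissues, did not pass the test. It was at 33.6, 62.3 and 84.4 CPM in controls and 20.4, 62.8 and 117 CPM with PFNA. The PFNA libraries reached both lower and higher than the controls, with a coefficient of variation of 45.0% against 24.6%. The log2 fold change was 0.10, with a 95% interval of -0.35 to 0.55 (adjusted p = 0.69, edgeR).

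Ptges3 (chr10:128058954-128077272, plus strand), also known as the Hsp90 cochaperone p23, had the lowest relative spread of the 10 genes within each group. It held 197, 209 and 232 CPM in controls and 170, 216 and 240 CPM with PFNA. Its log2 fold change was 0.01, with a 95% interval of -0.10 to 0.13 (adjusted p = 0.85, edgeR). Reads of Ptges3 may be shared with Ptges3-ps and Ptges3l, 2 related genes in the annotation, and its value is uncertain to that extent.

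The receptors moved in opposite directions. Ptger4 (chr15:5206661-5244187, minus strand), the EP4 receptor, held 26.2, 40.7 and 64.0 CPM in controls and 2.79, 9.76 and 18.2 CPM with PFNA. All 11 PFNA libraries lay below all controls. The mean fell from 41.7 ± 10.5 (SD, n = 12) to 10.9 ± 5.18 CPM (SD, n = 11), with a log2 fold change of -1.94 (SE 0.24, adjusted p = 7.3e-08, edgeR). Ptger2 (chr14:44988195-45003820, plus strand), the EP2 receptor that is needed for cumulus expansion in mice, rose. It held 6.23, 12.8 and 24.7 CPM in controls and 14.9, 29.5 and 34.9 CPM with PFNA. The ranges overlapped, and 7 of 11 PFNA libraries lay above all controls. The mean rose from 13.8 ± 5.42 (SD, n = 12) to 26.9 ± 7.27 CPM (SD, n = 11), with a log2 fold change of 0.97 (SE 0.20, adjusted p = 0.00012, edgeR). Antisense transcripts cover 2.77% and 4.74% of the exon bases of Ptger2, and 3.81% of those of Ptgs1 are covered by another opposite-strand gene. Whether counting used strand is not given in the sources used here.

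Hpgd (chr8:56294585-56321043, plus strand), which encodes the enzyme that inactivates prostaglandins, rose at ovulation. Controls held 2.84 CPM at the lowest, 4.22 at the median and 6.57 at the highest, and PFNA libraries held 9.51, 34.7 and 65.0 CPM. All 11 PFNA libraries lay above all controls, and the lowest were replicate 6 at 9.51 and replicate 5 at 10.7 CPM, well under the other 9. The same libraries, singled out after their values were seen, were the lowest of the PFNA group for Ptger2 (14.9 and 16.2 CPM) and for Ptges (20.4 and 31.8 CPM). The mean rose 7.64-fold, from 4.76 ± 1.47 (SD, n = 12) to 36.4 ± 18.2 CPM (SD, n = 11), with a log2 fold change of 2.93 (SE 0.28, adjusted p = 1.1e-09, edgeR).

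Slco2a1 (chr9:102988712-103096002, plus strand), the prostaglandin transporter that carries the lipid into cells for breakdown, varied widely within groups. It was at 1.20, 8.70 and 21.9 CPM in the lowest, median and highest control and at 1.48, 4.17 and 30.1 CPM with PFNA. The ranges covered each other almost wholly, and neither group had values between 7.44 and 12.5 CPM. The log2 fold change was -0.17, with a 95% interval of -1.27 to 0.94 (adjusted p = 0.79, edgeR), which still holds a fall of more than 2-fold.

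Markers of cell types moved at ovulation too, where 38.0% of all genes tested were higher and 35.2% lower. Granulosa markers were higher with PFNA for 6 of 10 (Amh, Amhr2, Fshr, Nr5a2, Cyp19a1 and Fst) and lower for 2 (Inha and Inhba), with a median log2 fold change of 1.11; the sum over the list is carried by Inha and Inhba. Fshr, the receptor of follicle-stimulating hormone (2.20), Amhr2 (2.21), Cyp19a1, the aromatase gene (2.23), and Nr5a2 (1.35) were higher in all 11 PFNA libraries than in any control. Theca markers were higher with PFNA for 5 of 6 tested and none was lower, with a summed level of 73.2 to 288 CPM in controls and 353 to 1081 CPM with PFNA. Endothelial markers were higher for 6 of 8 (37.7 to 163 CPM against 41.1 to 465 CPM), leukocyte markers for 5 of 10 (1.35 to 127 CPM against 4.22 to 175 CPM) and surface epithelium markers for 2 of 2 tested of 6 (5.44 to 23.0 CPM against 23.6 to 76.9 CPM). Stroma markers were higher for 3 of 6 and lower for 1 (169 to 2006 CPM against 1022 to 2938 CPM), and oocyte markers were higher for 5 of 10 tested (66.6 to 289 CPM against 13.9 to 435 CPM). No marker of these lists was at 0 in all libraries. The part of these marker shifts, granulosa included, in the rise of Hpgd and Ptger2 was not tested. With the oocyte share of each library as a covariate, the same count of 7 genes was called, with Hpgd at 2.50 and Ptgs2 at -5.09 on the log2 scale.

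Per length, Ptgs2 was by far the most abundant of the 10 in ovulation controls and Ptges3 was in PFNA libraries. As mean CPM per kilobase of exon, levels in controls ran from Ptgs2 at 1233 through Ptges3 at 95.1, Pla2g4a at 58.6, Ptges at 15.5, Ptger4 at 6.28, Ptges2 at 5.22, Hpgd at 2.83, Ptger2 at 2.65 and Ptgs1 at 1.5 to Slco2a1 at 0.733. With PFNA, the same levels ran from Ptges3 at 95.8 through Ptgs2 at 33.4, Hpgd at 21.6, Ptges at 16.6, Pla2g4a at 15.3, Ptger2 at 5.18, Ptges2 at 2.62, Ptger4 at 1.63 and Slco2a1 at 0.654 to Ptgs1 at 0.226. Hpgd thus stood below Ptger4 in the controls and above it with PFNA, and Ptger2 passed Ptger4 likewise. Neighbours in these orders whose spreads cover each other include Hpgd and Ptger2 in controls, and Ptges and Pla2g4a with PFNA. Exon lengths come from the GENCODE models, which differ from the models counted in this window. The order of genes at near levels is uncertain to that extent.

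In the maturation window PFNA was tested against DMSO. Of the 10 genes, 7 passed the filter of a mean of at least 1 TPM. Of those, 3 were lower with PFNA (Pla2g4a, Ptges and Ptges3), 1 was higher (Ptger2) and 3 did not pass the test (Ptges2, Ptger4 and Hpgd). Of all 13712 genes tested, 29.4% were called (13.3% higher, 16.1% lower; limma on log2(TPM + 1), Benjamini-Hochberg adjusted p under 0.05). The median log2 fold change was -0.24 over the 7 genes and 0.02 over all genes tested. None of the 7 had groups that did not overlap, against 1.28% of all genes.

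**Figure D2:**
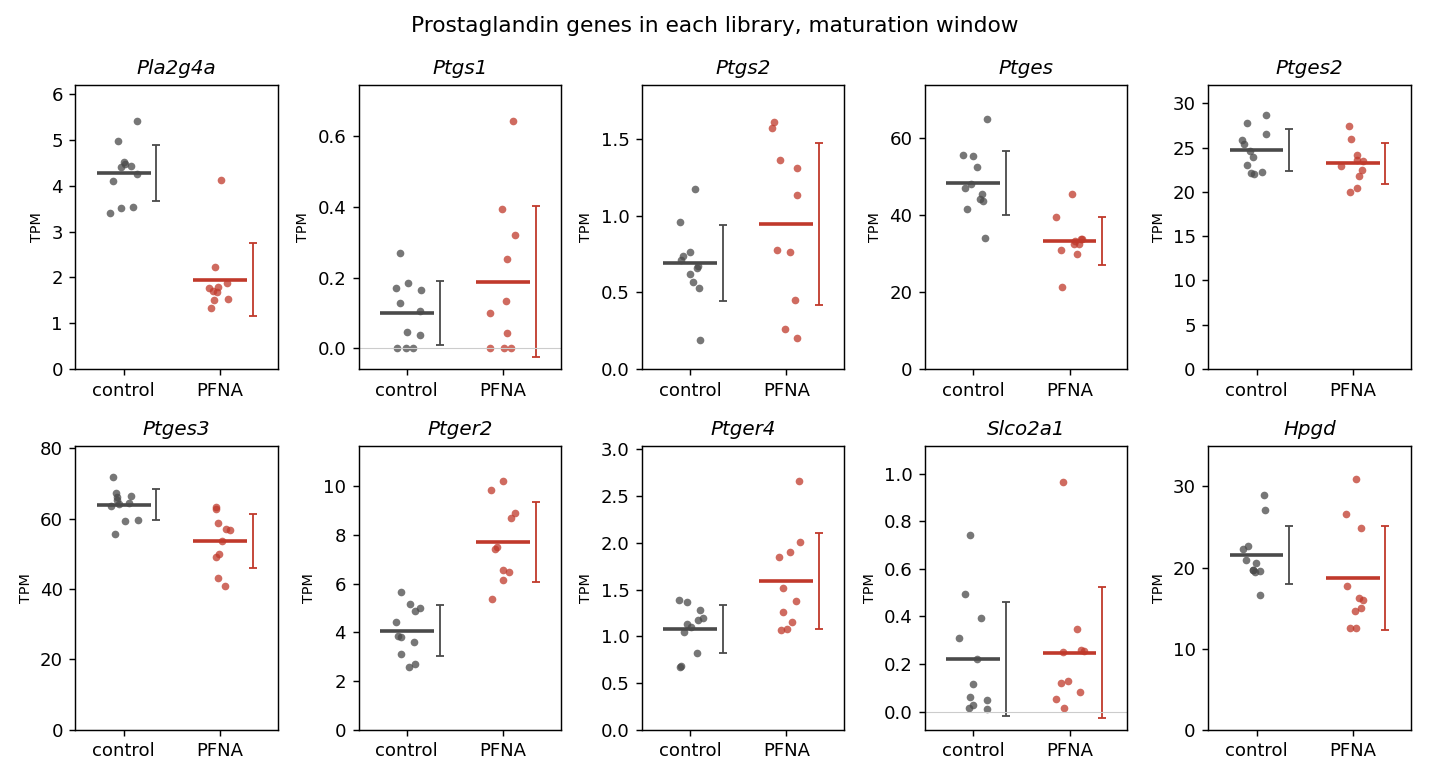
Level of each gene in every maturation library (TPM, linear axes that differ between panels) for 11 control and 10 PFNA libraries; each point is a library, each bar the group mean and each whisker 1 SD. Pla2g4a is lower in 9 of 10 PFNA libraries than in any control, Ptger2 is higher in 9 of 10, and Ptgs1, Ptgs2 and Slco2a1 have means under 1 TPM.

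Pla2g4a fell in this window too. It was at 3.40, 4.41 and 5.43 TPM in the lowest, median and highest control and at 1.32, 1.74 and 4.12 TPM with PFNA. The PFNA library at 4.12 TPM was replicate 1, and the other 9 lay below all controls. The mean was 4.28 ± 0.622 TPM (SD, n = 11) in controls and 1.95 ± 0.80 TPM (SD, n = 10) with PFNA, with a log2 fold change of -0.87 (SE 0.11, adjusted p = 1.5e-05, limma) and of -0.99 without PFNA replicates 1 and 2. At this low level the fold change depends on the value added before the logarithm, and was -1.15 with 0.1 TPM and -0.42 with 5 TPM.

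Both cyclooxygenases were nearly silent in the maturation window. Ptgs2 was at 0.187, 0.674 and 1.18 TPM in the lowest, median and highest control and at 0.203, 0.957 and 1.62 TPM with PFNA, with groups that overlapped widely. Ptgs1 was at 0 to 0.271 TPM in controls and 0 to 0.643 TPM with PFNA, and Slco2a1 at 0.0130 to 0.743 and 0.0151 to 0.966 TPM. These 3 genes were under the filter, and in a fit without it none was called (limma adjusted p = 0.46 for Ptgs2, 0.45 for Ptgs1 and 0.90 for Slco2a1).

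Among the synthases, Ptges was at 34.02, 47.2 and 65.0 TPM in controls and 21.3, 32.9 and 45.5 TPM with PFNA, with 8 of 10 PFNA libraries below all controls. It fell from 48.5 ± 8.36 (SD, n = 11) to 33.3 ± 6.25 TPM (SD, n = 10), with a log2 fold change of -0.53 (SE 0.11, adjusted p = 0.0010, limma). Ptges3 was at 55.6, 64.5 and 71.8 TPM in controls and 41.0, 55.2 and 63.4 TPM with PFNA, and 5 of 10 PFNA libraries lay below all controls. It fell by 0.26 on the log2 scale (SE 0.07, adjusted p = 0.0083, limma). Ptges2 was at 22.0, 24.6 and 28.7 TPM in controls and 19.97, 23.2 and 27.4 TPM with PFNA, and did not pass the test (log2 fold change -0.09, 95% interval -0.22 to 0.04, adjusted p = 0.29, limma). With the oocyte share of each library as a covariate, the calls of Ptges and Ptges3 ended (-0.34 with adjusted p = 0.17, and -0.09 with adjusted p = 0.55, limma). In that fit Pla2g4a (-0.61, adjusted p = 0.021, limma) and Ptger2 (0.85, adjusted p = 0.013) stayed called. The oocyte share itself went with PFNA, with a median marker sum of 166 TPM in controls and 1.75 TPM with PFNA. The fit thus cannot separate oocyte share from PFNA, and the cause of the lost calls was not tested. Without PFNA replicates 1 and 2, Ptges was at -0.62, Ptges3 at -0.31 and Ptges2 at -0.06.

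Ptger2 rose in the maturation window as well. It was at 2.56, 3.84 and 5.64 TPM in controls and 5.38, 7.48 and 10.2 TPM with PFNA, and 9 of 10 PFNA libraries lay above all controls. The mean rose from 4.07 ± 1.04 (SD, n = 11) to 7.73 ± 1.64 TPM (SD, n = 10), with a log2 fold change of 0.79 (SE 0.12, adjusted p = 8.2e-05, limma), both with and without PFNA replicates 1 and 2. Ptger4 was at 0.669, 1.13 and 1.39 TPM in controls and 1.07, 1.44 and 2.66 TPM with PFNA. It did not pass the test, narrowly. Its log2 fold change of 0.30 (95% interval 0.06 to 0.54) had an adjusted p of 0.051 (limma), 0.039 with median-ratio scaling and 0.072 without PFNA replicates 1 and 2. The gene model of Ptger4 in this table also covers 82 exon bases of Ttc33 and 1015 of the pseudogene Gm15937, on the opposite strand, which make up 1.23% and 15.27% of its exon bases.

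Hpgd was at 16.6, 20.6 and 29.0 TPM in controls and 12.5, 16.1 and 30.9 TPM with PFNA. PFNA libraries lay on both sides, with 6 below all controls and 1 above. It did not pass the test (log2 fold change -0.24, 95% interval -0.54 to 0.05, adjusted p = 0.21, limma), nor without PFNA replicates 1 and 2 (-0.15, adjusted p = 0.44).

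The PFNA effect differed between the windows for 5 of the 7 genes tested in both, 2 with the ovulation effect higher and 3 lower. Over 11197 genes 67.7% differed (32.0% higher, 35.6% lower), so the count is close to the background and is no result about the set. Effects were taken on log2(CPM + 1) and log2(TPM + 1) with limma and subtracted, ovulation minus maturation, because the units differ. The effect of PFNA on Ptger4 was 2.26 lower at ovulation (difference -2.26, SE 0.25, adjusted p = 5.3e-10), and that on Hpgd was 2.78 higher (SE 0.30, adjusted p = 2.2e-10). The fall of Pla2g4a was deeper at ovulation (difference -1.06, SE 0.14, adjusted p = 2.0e-08), and so was the effect on Ptges2 (difference -0.87, SE 0.11, adjusted p = 2.2e-09). The size of the Pla2g4a difference is uncertain, since the value added before the logarithm shrinks the effect at its low maturation level. Over 5 alternatives it ran from -1.46 to -0.78. For Ptges3 the difference was 0.27 (SE 0.09, adjusted p = 0.0085). For Ptger2 the difference of 0.17 (SE 0.23, adjusted p = 0.53) did not pass. For Ptges the difference was 0.52 (SE 0.25, adjusted p = 0.063), which fell under the threshold without maturation PFNA replicates 1 and 2 (0.61, adjusted p = 0.029). Ptgs1, Ptgs2 and Slco2a1 were not tested for a difference, since they were under the filter at maturation.

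**Figure D3:**
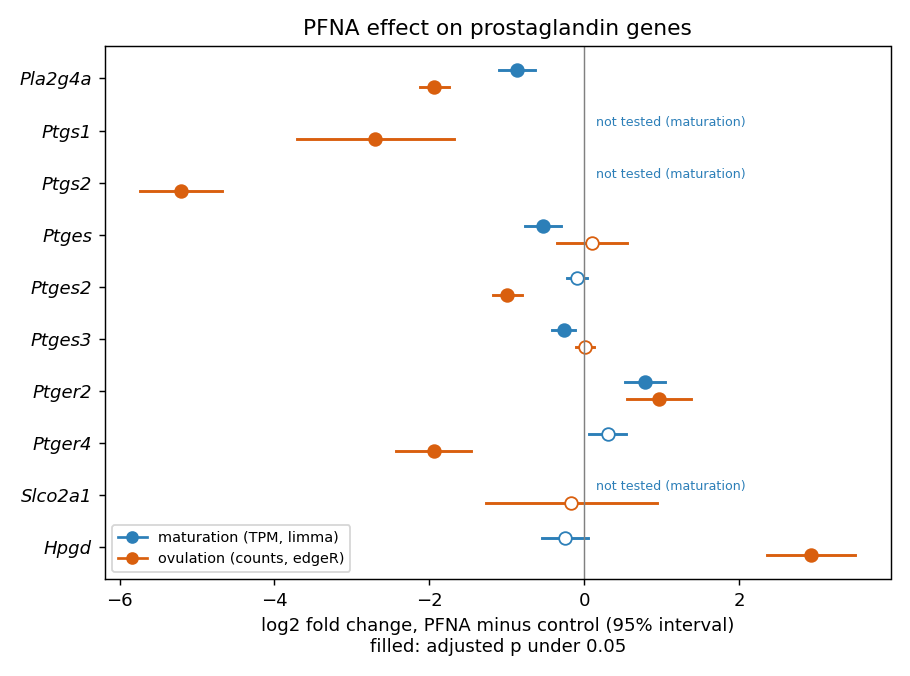
Log2 fold change of each gene with PFNA against control, with 95% intervals, in the maturation window (blue, limma on log2(TPM + 1)) and the ovulation window (orange, edgeR on counts); filled points have an adjusted p under 0.05. Ptgs2 at -5.21 and Hpgd at 2.93 lie farthest from 0, and Ptger2 is higher and Pla2g4a lower in both windows.

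Within the ovulation groups, Ptgs2 was set against each of the other 9 genes on log2(CPM + 1), which made 18 relations over both groups. Ptgs2 and Ptger2 varied together over the 12 controls (Pearson's r = 0.85, permutation p = 7e-04, adjusted p = 0.013; Spearman's rho = 0.85, permutation p = 0.00092, adjusted p = 0.017), and r was 0.81 without the 2 libraries farthest from the median of Ptgs2. The same pair gave r = -0.12 and rho = -0.04 over the 11 PFNA libraries (permutation p = 0.72 and 0.92, adjusted p = 0.76 and 0.98), and the difference between the groups was not tested. No other relation passed after adjustment. The nearest was Ptgs1 in controls, with r = 0.75 (permutation p = 0.0057, adjusted p = 0.051) and rho = 0.73 (permutation p = 0.0092, adjusted p = 0.068). With PFNA the same pair gave r = 0.32 and rho = 0.44 (permutation p = 0.33 and 0.18, adjusted p = 0.46 and 0.30). For Ptger4, r was 0.69 in controls (rho 0.69, permutation p = 0.012 and 0.017, adjusted p = 0.052 and 0.078) and 0.73 with PFNA (rho 0.61, permutation p = 0.010 and 0.052, adjusted p = 0.052 and 0.14). Libraries share their depth and scaling across genes.

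Over deviations from the group means in all 23 ovulation libraries, the 5 genes of 9408 compared that were most like Ptgs2 were Zfp804a (Pearson's r = 0.91), Rnf217 (0.88), Glul (0.87), Btg1 (0.86) and Egr2 (0.86). For Ptges they were Smyd5 (0.91), Bckdk (0.91), Foxl2 (0.89), Kat2a (0.89) and Nt5c3b (0.89). Of the 5 genes like Ptgs2, 4 were lower with PFNA, from -1.20 for Rnf217 to -2.00 for Zfp804a on the log2 scale, whereas Egr2 was higher at 0.81. Over all genes tested at ovulation 35.2% were lower and 38.0% higher. These correlations are descriptions of libraries that share depth and composition, with no test.

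Pla2g4a and Ptgs2 are neighbours, with start sites 138.7 kb apart on chromosome 1, and both were lower at ovulation. Over all genes tested at ovulation 35.2% were lower, so both being lower is no result about the region. No other tested gene that lies at least in part within 500 kb of Ptgs2 was lower by the test over all libraries. Tpr, a nuclear pore protein gene, had a log2 fold change of -0.10 (adjusted p = 0.099, edgeR; -0.13 with adjusted p = 0.043 without PFNA replicate 6) and Prg4, the gene of the lubricant proteoglycan lubricin, -0.01 (adjusted p = 0.98), while Odr4 (0.73, adjusted p = 9.4e-07) and Hmcn1 (0.55, adjusted p = 0.0089) were higher. The start site of Hmcn1 is 893.4 kb away, and only the far end of the gene comes within 500 kb. The antisense gene Ptgs2os starts 157 bases upstream of the start of Ptgs2, and neither it nor Ptgs2os2 was tested. In the maturation window no neighbour but Pla2g4a was called among those tested.

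**Figure D4:**
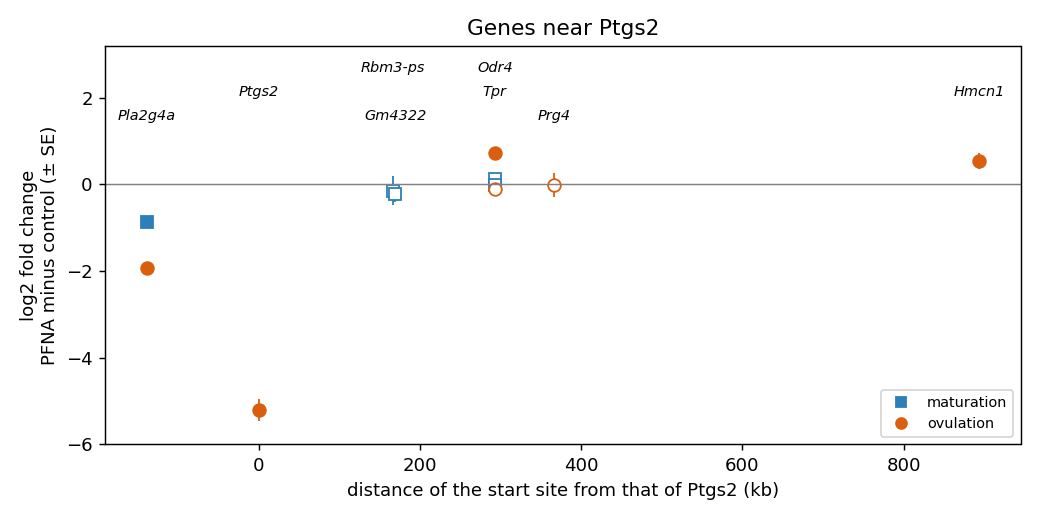
Log2 fold change with PFNA (± SE) of genes near Ptgs2 against the distance of their start sites from that of Ptgs2 (kb), in the maturation window (squares) and the ovulation window (circles); filled symbols have an adjusted p under 0.05. Pla2g4a and Ptgs2 are the genes that lie lower at ovulation, and Odr4 and Hmcn1 lie higher.

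The wider eicosanoid pathway gave 45 further genes, of which 35 were tested at ovulation and 22 were called (62.9%, 11 higher and 11 lower), and 26 were tested at maturation and 8 were called (30.8%, 3 higher and 5 lower). Both shares are near or below those of all genes, and the median log2 fold change was 0.00 at ovulation and 0.02 at maturation. At ovulation the genes of release and arachidonate handling gave 2 higher and 5 lower of 13 tested, other synthases 2 and 3 of 9, other receptors 1 and 2 of 5, transport and inactivation 5 and 1 of 7, and the lipoxygenase branch 1 and 0 of 1. The shares of all genes tested were 38.0% higher and 35.2% lower, and no list was tested as a set. The genes with the smallest p at ovulation were Pla2g6, a calcium-independent phospholipase A2 (16.8 ± 3.09 against 45.4 ± 6.89 CPM, log2 fold change 1.43), Pla2g15, the lysosomal phospholipase A2 (30.2 ± 3.64 against 11.4 ± 2.54 CPM, -1.41), Cbr3, a carbonyl reductase (14.2 ± 5.06 against 2.92 ± 0.965 CPM, -2.28), and Slco3a1, an organic anion transporter that also carries prostaglandins (104 ± 9.70 against 214 ± 46.3 CPM, 1.05; SD, n = 12 and 11). At maturation they were Ptgis, the prostacyclin synthase (4.68 ± 0.996 against 1.98 ± 1.11 TPM, -0.98), Akr1b3, an aldose reductase with prostaglandin F synthase activity (114 ± 11.3 against 90.8 ± 11.1 TPM, -0.33), Pla2g4c, a phospholipase A2 of the Pla2g4a family (2.62 ± 0.682 against 1.06 ± 2.50 TPM, -1.26), and Slco3a1 (7.95 ± 1.88 against 5.12 ± 1.93 TPM, -0.57; SD, n = 11 and 10). The PFNA mean of Pla2g4c rests on replicate 10, which at 8.04 TPM stood above every control, while the other 9 libraries lay below every control. Without replicate 10 the PFNA level of Pla2g4c was 0.282 ± 0.509 TPM (SD, n = 9) and the log2 fold change -1.55 (adjusted p = 4.2e-06, limma).

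**Figure D5:**
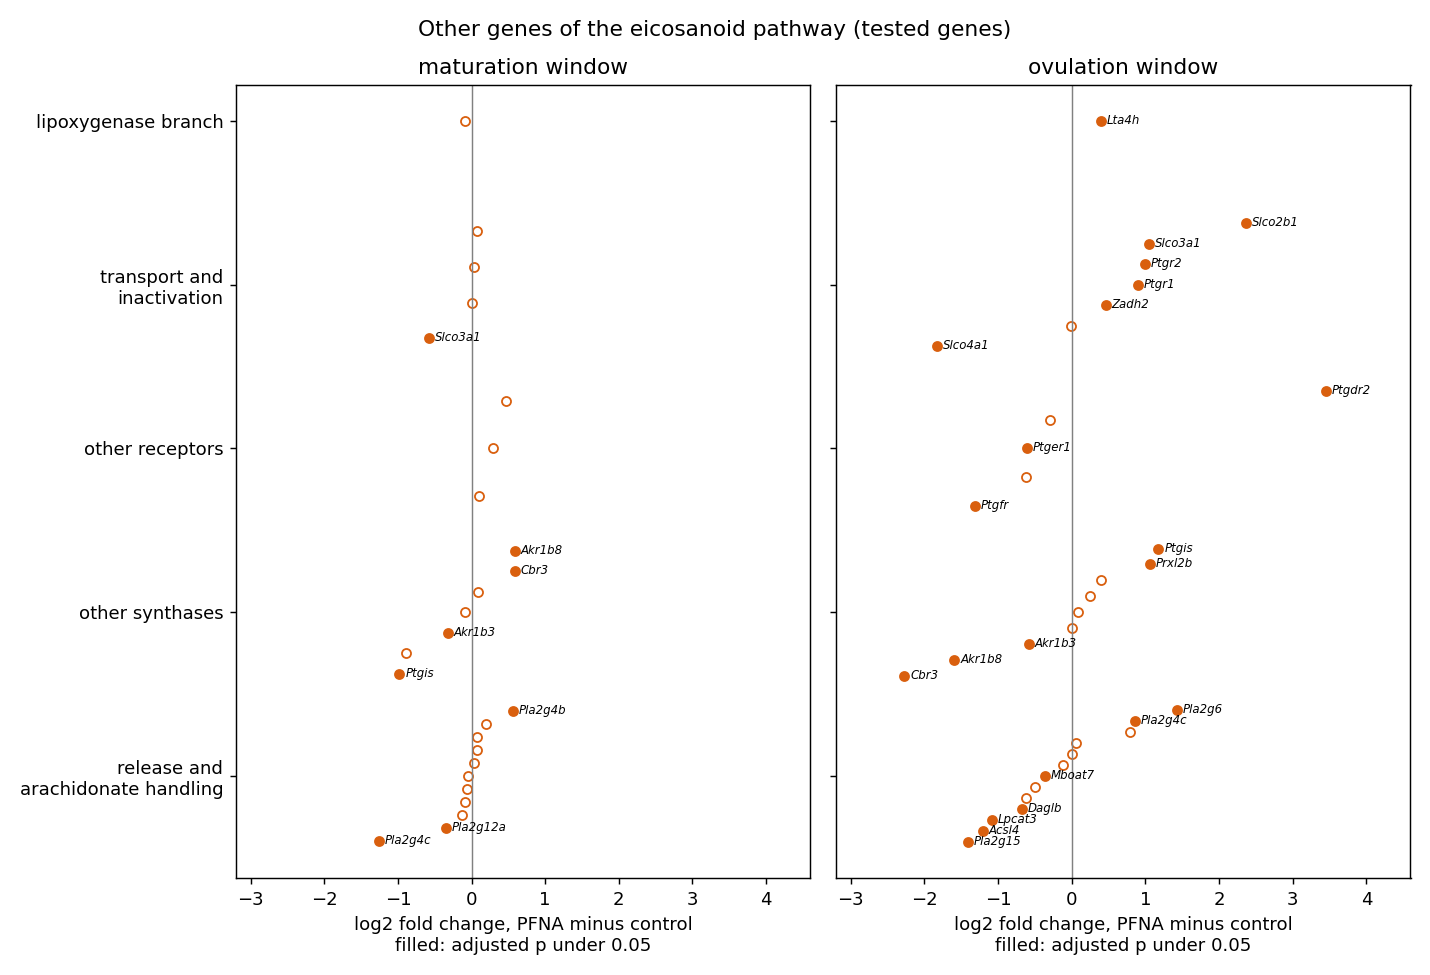
Log2 fold change with PFNA against control of the tested genes of the wider eicosanoid pathway, grouped by role, in the maturation window (left) and the ovulation window (right); filled points have an adjusted p under 0.05 and carry the symbol of the gene. At ovulation 5 of 7 transport and inactivation genes lie higher and 1 lower, where 38.0% of all genes tested were higher and 35.2% lower. Cbr3, one of the other synthases, lies lower at -2.28.

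The 3 cumulus matrix genes, whose products build and cross-link the hyaluronan coat around the oocyte, were all lower with PFNA at ovulation. Prostaglandin E2 was not measured, and its part in these falls was not tested. The share of all genes tested that were lower there was 35.2%. Ptx3, which encodes pentraxin 3, was at 1113 ± 207 CPM in controls and 13.2 ± 9.40 CPM with PFNA (log2 fold change -6.39, adjusted p = 2.6e-14, edgeR). Tnfaip6, which encodes a hyaluronan-binding protein, was at 1349 ± 608 and 77.9 ± 44.6 CPM (-4.11, adjusted p = 4.6e-11), and Has2, a hyaluronan synthase, at 314 ± 60.9 and 168 ± 81.9 CPM (-0.90, adjusted p = 0.0016; SD, n = 12 and 11). At maturation Has2 was lower too (-0.55, adjusted p = 0.025, limma), Tnfaip6 did not pass the test (0.04, adjusted p = 0.90), and Ptx3 was under the filter.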

How the data were processed

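RNA of whole follicles was selected on poly-T beads and primed with random hexamers, per the labels' protocols. The submitters' processing notes name Partek, Bowtie2 and HISAT2 with no versions or roles. For the ovulation window the authors deposited estimated counts per gene, of which 18.3% were not whole, and these were rounded before testing. For the maturation window the authors deposited TPM under a name that says raw counts: every library summed to 1000000 and 82.6% of values were not whole (tolerance 1e-6). Depth of the TPM values is unknown, so no count test was possible there.

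The ovulation window was tested with edgeR 4.0.16 (R 4.3.3; filterByExpr, TMM factors, quasi-likelihood, robust), and CPM are TMM-scaled. For maturation, limma 3.58.1 was run with trend and robust variance on log2(TPM + 1) of genes averaging 1 TPM or more. Fold changes on this scale understate the change of low genes. Differences between windows used limma in each table with Satterthwaite's degrees of freedom, leaving out symbols turned into dates. P-values were adjusted over all genes tested. DESeq2 1.42.0, other scalings, filters and pseudocounts, covariates, the replicate block and leaving out libraries were tried as alternatives.

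The members, gene lists and tests were chosen with earlier results of these data known. Named were all 10 members, per window the 4 other pathway genes with the smallest p, the cumulus matrix genes, genes within 500 kb of Ptgs2, and the 5 genes most correlated with Ptgs2 and with Ptges (mean of at least 10 CPM in a group). The closest libraries of a group correlated at 0.982. At ovulation all pairs within a group differed by more than counting noise (lowest chi-square over its degrees of freedom 7.22). That cannot exclude libraries that share an animal or a culture, and it could not be checked on TPM. Each library was counted as a replicate. A maturation column whose name differed by a letter from the title of control replicate 6 was taken as that sample. The numbers of the maturation controls skip 4, and no column of values was left unused. Starts in the maturation table equalled those of GENCODE M21 on GRCm38 for 99.26% of shared symbols, against 37.16% in the ovulation table, so gene models differ between tables. Coordinates are those of the maturation table, 1-based. The scripts were tested on simulated data.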

Additional observations from a re-analysis of the deposited data

Results flagged for a closer look

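In the maturation window, 10 groups of PFNA values were searched for a library that stands far from the rest of its group, and 2 were found, where chance gives about 0.5 (1 in 20). Pla2g4a was at 4.12 TPM in PFNA replicate 1, and the next library was at 2.22 TPM. Slco2a1 was at 0.966 TPM in PFNA replicate 9, and the next library was at 0.346 TPM. The other groups have more than 10 libraries and were not searched.

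The PFNA effect differed between the windows, by a test of the difference itself, for Pla2g4a (ovulation minus maturation -1.06), Ptges2 (-0.87), Ptges3 (0.27), Ptger4 (-2.26) and Hpgd (2.78), all on the log2 scale. Over all 11197 genes tested in both windows 67.7% differed, so the count of members is no result about the set. The windows also differ in the unit of their tables, the gene models and the control treatment, and these cannot be told apart from the window.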

How the results depend on the processing

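At ovulation, 273 of 280 values of the members under the alternatives kept their direction and their side of the threshold, and 7 members were called in all 28 alternatives. The exceptions were the sign of genes that were not called: Ptges3 at -0.0207 without the filter on low counts and at -0.00865 to 0.0404 when each library was left out in turn, Ptges at -0.22 with the oocyte share as covariate and at -0.0207 to 0.19 on leaving out libraries, and Slco2a1 at 0.13 with the oocyte share as covariate. At maturation 191 of 201 values kept both. With the oocyte share as covariate, 2 members in place of 4 were called, and 839 genes in place of 4030. Ptges and Ptges3 lost their calls, and that share itself went with PFNA, so the fit cannot separate the 2. The cause of the lost calls was not tested. Ptger4 was called in 8 of 28 alternatives, 6 of them with a library left out, with an adjusted p of 0.037 to 0.22 (limma). Leaving out each library in turn gave 4 to 5 called members at maturation and 7 at ovulation. For the difference between windows, 5 to 6 members were called, and the added member was Ptges each time. With the replicate block, 4 members were called at maturation, 7 at ovulation and 6 for the difference, where Ptges was at 0.63 (adjusted p = 0.025, limma). Libraries with the same number deviated together in 1 of 9 pairs at maturation and 0 of 11 at ovulation (correlation over 0.1). Low correlations cannot exclude that libraries with the same number share an animal or a culture. Counting depth limits Ptgs1 at ovulation, and for TPM the limit is unknown.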
